A study of Mus musculus with 55 samples.

Results

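Oligodendrocyte precursors are the dividing glial cells of the adult brain from which new myelinating oligodendrocytes arise. On the way they pass through a short committed stage, in which the precursor receptors are lost and genes that are mostly lower again in mature, myelinating cells come on. The 9 genes described here mark that path, and they were taken from the gene count table by their symbols, 9 of 55487 genes. Pdgfra, the receptor for platelet-derived growth factor that keeps precursors dividing, and Cspg4, which encodes the NG2 proteoglycan on their surface, stand for the precursor. Gpr17, a G protein-coupled receptor of committed precursors, Bcas1, a protein of early myelinating cells, and Enpp6, a choline phosphodiesterase of newly formed oligodendrocytes, stand for the committed stage. Vcan, Tnr and Ptprz1, which encode the matrix proteins versican and tenascin-R and a receptor-type phosphatase that binds matrix proteins, and Lhfpl3, a membrane protein gene, are expressed by precursors and fall on neither side of that contrast. All 9 passed the filter on low counts and were tested among 16168 genes.

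The RNA came from the dorsal hippocampus of 55 adult mice on a C57BL/6J background, 1 hippocampus per mouse, aged 10.86 to 23.71 weeks. Wild-type (WT) mice comprised 6 diestrus, 7 estrus, 5 proestrus and 4 metestrus females and 5 males, and Cnih3 knock-out (KO) mice comprised 6, 6, 4 and 5 females of these stages and 7 males. Stages were scored from vaginal cytology, no drug or hormone treatment is stated, and the KO line lacks exon 4 of Cnih3, an AMPA receptor trafficking gene. Of the 27 WT mice, 16 came from B6 x B6 matings, whose litters hold no KO mice: 6 of 7 in estrus, 4 of 5 in proestrus, 3 of 4 in metestrus, 2 of 6 in diestrus and 1 of 5 males. Libraries held 25881295 to 63547098 counted reads. Of the 5 WT proestrus mice, 2 had an RNA integrity number, a measure of how intact the RNA is, under 8. Cnih3 counts ran from 818 to 3234 in single libraries, at 20.1 to 58.5 CPM (counts scaled to the size of the library) in WT and 19.4 to 43.6 CPM in KO mice, so the gene-level count did not show the loss of 1 exon and does not check the genotype labels. In whole tissue, fewer cells of a type and less RNA per cell cannot be told apart.

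The 7 diestrus mice under 14 weeks of age stood apart from the other 48 mice. They were WT replicates 3, 4 and 5 and KO replicates 2, 3, 4 and 5, aged 10.86 to 13.86 weeks, and their sample names follow a numbering that no other mouse carries. The other 5 diestrus mice were 16.29 to 23.43 weeks old, and 10 mice of other stages or males were also under 14 weeks. Summed over 8 RNAs that stay in the nucleus, the 7 mice had 528 to 894 CPM (median 668) against 836 to 4119 CPM (median 3119) in the other 48, with 1 WT male at 836 CPM as the sole overlap. The summed level of 16 mature oligodendrocyte markers was 3129 to 4043 CPM in the 7 mice and 3988 to 7767 CPM in the others, and that of 10 astrocyte markers was 3974 to 4492 CPM against 2513 to 4270 CPM. The members' results on diestrus are therefore given for all 12 diestrus mice and for the 2 age sets apart, a separation made after the data had been seen. Diestrus at this age, the sample numbering and these marker shifts cannot be told apart in the 7 mice, nor can the mating in the 3 WT mice among them, none of which came from B6 x B6.

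The 250 bases before the RefSeq start (GRCm38.p6) were read for the 7 members matched in the promoter table. They are shown for Enpp6, Tnr and Vcan, whose levels separated the 7 young diestrus mice most clearly, and for Lhfpl3, which was not lower in them. Each runs from 5′ to 3′ on the strand of the gene, with matches to 4 short motifs in capitals.
Enpp6, chr8:46986637-46986886, plus strand: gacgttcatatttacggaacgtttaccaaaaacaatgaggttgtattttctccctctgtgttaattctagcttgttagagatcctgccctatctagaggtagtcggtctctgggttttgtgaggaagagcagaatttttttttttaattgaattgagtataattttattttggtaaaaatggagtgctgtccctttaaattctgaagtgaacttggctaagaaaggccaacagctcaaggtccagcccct
Tnr, chr1:159523519-159523768, plus strand: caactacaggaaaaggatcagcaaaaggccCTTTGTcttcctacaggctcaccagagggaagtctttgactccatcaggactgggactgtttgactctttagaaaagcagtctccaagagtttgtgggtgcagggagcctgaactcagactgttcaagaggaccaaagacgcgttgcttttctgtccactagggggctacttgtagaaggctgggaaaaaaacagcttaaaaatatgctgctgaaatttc
Vcan, chr13:89742513-89742762, minus strand: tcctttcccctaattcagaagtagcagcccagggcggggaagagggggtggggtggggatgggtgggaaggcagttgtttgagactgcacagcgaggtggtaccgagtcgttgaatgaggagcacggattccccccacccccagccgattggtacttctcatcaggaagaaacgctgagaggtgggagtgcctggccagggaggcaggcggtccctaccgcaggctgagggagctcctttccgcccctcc
Lhfpl3, chr5:22745804-22746053, plus strand: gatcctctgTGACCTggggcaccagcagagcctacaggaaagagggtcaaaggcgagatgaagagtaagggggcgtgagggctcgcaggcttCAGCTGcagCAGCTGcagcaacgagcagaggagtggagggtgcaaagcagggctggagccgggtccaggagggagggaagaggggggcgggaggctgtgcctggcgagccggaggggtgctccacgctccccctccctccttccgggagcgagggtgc

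The motifs, searched on both strands, were CAGCTG (an E-box bound by OLIG2-type factors), ACAAAG (bound by SOX factors), AGGTCA (a nuclear receptor half-site) and AGAACA (a steroid receptor half-site). CAGCTG was present in 13.0% of 32851 promoter windows of this length, ACAAAG in 16.5%, AGGTCA in 14.0% and AGAACA in 16.1%. Among the members, Lhfpl3 held CAGCTG at 158 and 149 bases and AGGTCA at 241 bases before its start, and Tnr held ACAAAG, read as CTTTGT, at 220 bases before its start. The windows of Enpp6, Vcan, Pdgfra, Cspg4 and Ptprz1 held none of the 4. The windows shown therefore share no match among the genes whose levels were low in the same mice.

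The 9 genes lie on 8 chromosomes (GRCm38, Ensembl annotation), and reads were counted over their exons. Pdgfra spans chr5:75152292-75198215 on the plus strand and Cspg4 spans chr9:56865033-56899870 on the plus strand. Gpr17 spans chr18:31942997-31949636, Bcas1 chr2:170346991-170427845 and Vcan chr13:89655312-89742509, each on the minus strand. Enpp6 (chr8:46986887-47096762), Lhfpl3 (chr5:22746059-23275597), Ptprz1 (chr6:22875502-23052916) and Tnr (chr1:159523769-159931729) lie on the plus strand.

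Per kilobase of exon, Bcas1 was the most abundant member over all mice, with a median of 7.35 CPM per kilobase. Ptprz1 (4.18 CPM per kilobase), Lhfpl3 (3.53), Tnr (2.78) and Gpr17 (1.95) followed, then Enpp6 (1.25) and Pdgfra (1.10). Cspg4 (0.515 CPM per kilobase) and Vcan (0.333) were lowest, and Vcan gave the lowest count of any member in a library, 96 reads. Other cells of the hippocampus also express several of these genes: Ptprz1 is known from astrocytes, Tnr from interneurons, Pdgfra from fibroblasts and Cspg4 from pericytes. Defining markers of those cell types were above 0 in these samples, at a summed level of 31.1 to 76.8 CPM for 8 pericyte markers, 10.9 to 94.0 CPM for 8 fibroblast markers and 672 to 948 CPM for 8 interneuron markers over all 55 mice. With group means removed, over the 48 mice outside the young diestrus set, Ptprz1 had r = 0.40 (rho = 0.46, adjusted p = 0.0202) with the astrocyte list and Tnr r = 0.37 (rho = 0.27, adjusted p = 0.0405, by rank 0.148) with the interneuron list. Cspg4 had r = 0.31 (rho = 0.28, adjusted p = 0.0858) with the pericyte list and Pdgfra r = 0.24 (rho = 0.20, adjusted p = 0.215) with the fibroblast list. The p-values of these correlations are too small, for the reason given with the member pairs below. Each of the 4 had a higher r with another list. Ptprz1 had 0.53, Cspg4 0.43 and Pdgfra 0.36 with the interneuron list, and Cspg4 had 0.47 and Tnr 0.42 with nuclear RNAs. The values thus do not assign these genes to a cell type.

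The spread between mice of 1 group was large beside the steps from group to group. The pooled SD within groups was 0.31 for Pdgfra, 0.38 for Cspg4, 0.41 for Gpr17, 0.23 for Bcas1 and 0.44 for Enpp6 on the log2 CPM scale, and the 10 group means spanned 0.49, 0.58, 1.09, 0.17 and 1.10 respectively. WT diestrus had the lowest group mean of Pdgfra, Cspg4, Gpr17, Vcan, Ptprz1 and Tnr, and KO diestrus that of Enpp6. Between neighbours in the order of group means, no gap exceeded the larger SD of the pair for any member. The order of the 10 groups is thus not resolved step by step, and the comparisons below rest on groups farther apart.

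**Figure D1:**
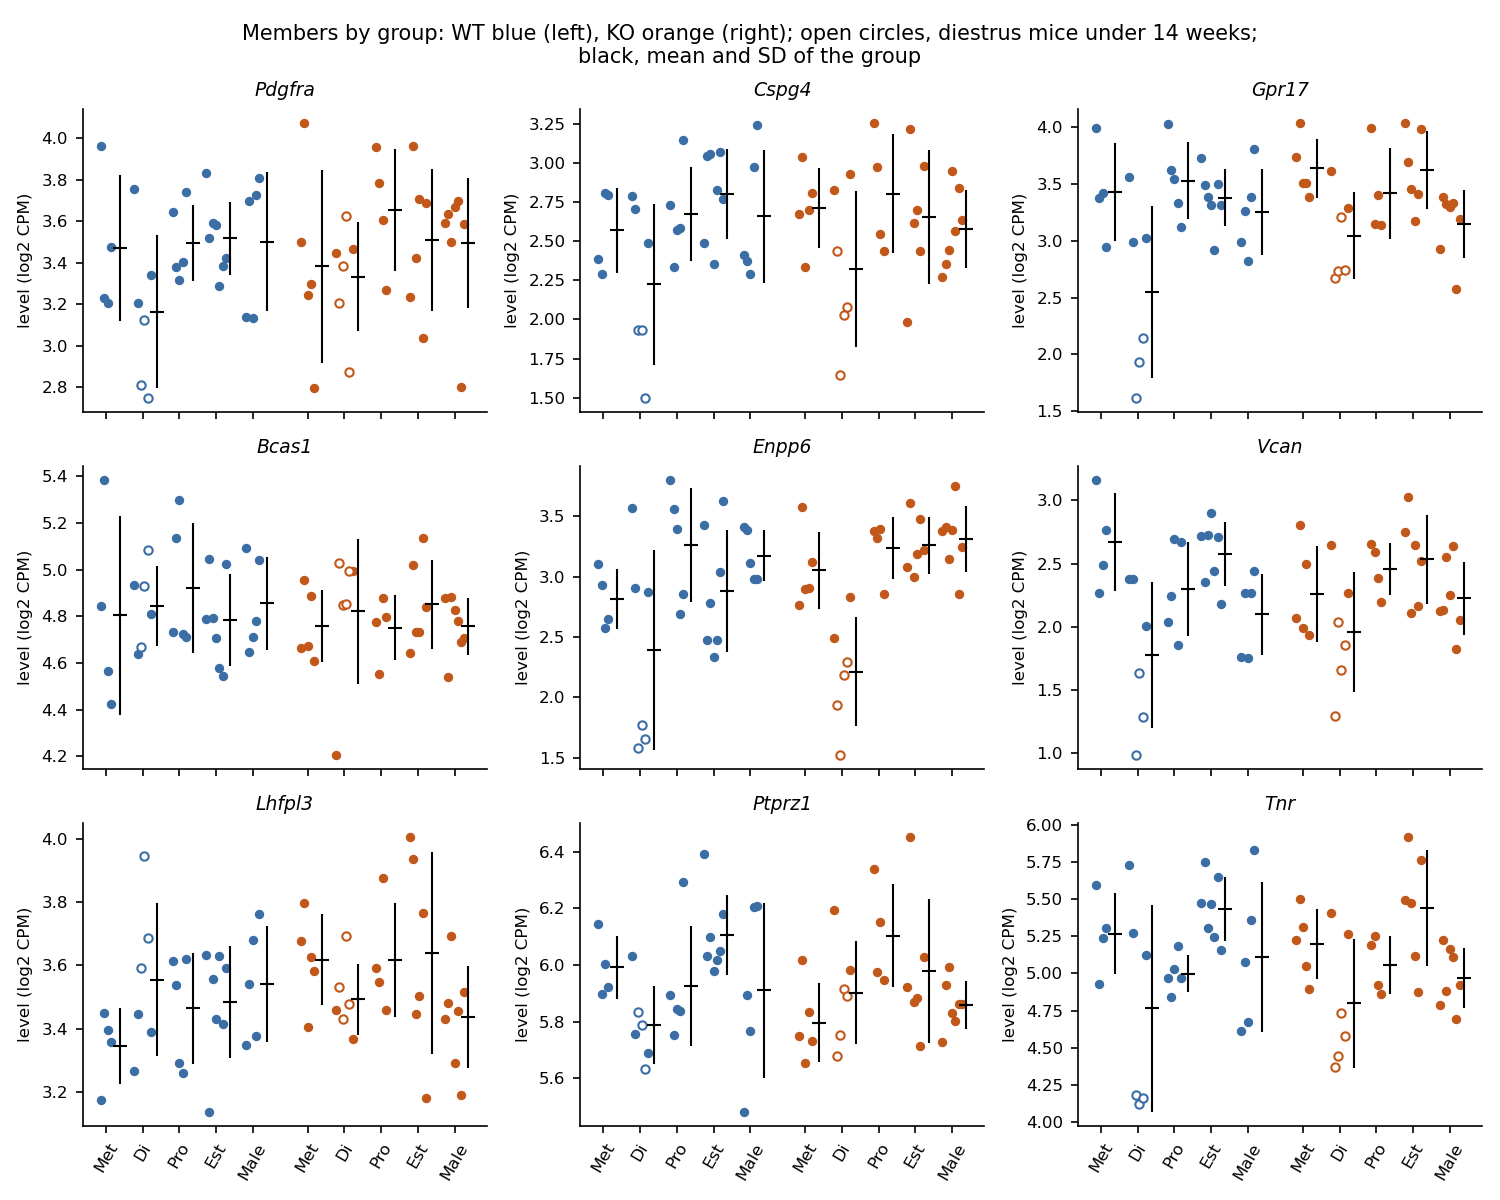
Level of each member (log2 CPM, TMM-normalized) in every mouse, by genotype and by estrous stage or male, with the mean and SD of each group in black. Open circles are the 7 diestrus mice under 14 weeks, which lie at the foot of the panels for Enpp6, Vcan and Tnr and within the other mice for Bcas1 and Lhfpl3. For Gpr17 the 3 WT mice alone lie at the foot.

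Of the precursor pair, Pdgfra ran from 6.73 to 16.8 CPM over all mice and did not set the young diestrus mice apart. WT diestrus mice under 14 weeks had 7.03, 8.72 and 6.73 CPM and KO ones 9.21, 10.5, 12.3 and 7.34 CPM. The older diestrus mice had 13.5, 9.22 and 10.1 CPM in WT and 10.9 and 11.0 CPM in KO. Young and older WT mice do not overlap, whereas the young KO mice lie on both sides of the older ones, and 31 of the other 48 mice were below the highest of the 7. Elsewhere medians in WT and KO mice were 10.3 and 9.82 CPM for metestrus, 10.6 and 13.0 CPM for proestrus, 11.5 and 11.8 CPM for estrus and 12.9 and 12.0 CPM for males.

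Cspg4 ran from 2.83 to 9.57 CPM. The young diestrus mice had 3.81, 3.81 and 2.83 CPM in WT and 5.41, 3.13, 4.08 and 4.22 CPM in KO. The older ones had 6.90, 6.51 and 5.62 CPM in WT and 7.09 and 7.62 CPM in KO. All 7 young mice were below the median of the other 48, but 11 of those 48 were below the highest of the 7.

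Gpr17, the receptor gene of the committed side, was lowest in the young WT diestrus mice. They had 3.07, 3.83 and 4.42 CPM, and the young KO diestrus mice had 6.38, 6.67, 9.24 and 6.71 CPM. The older diestrus mice had 11.8, 7.95 and 8.16 CPM in WT and 12.3 and 9.79 CPM in KO. The 3 young WT mice were below every other mouse of the study, of which the lowest was a KO male at 5.95 CPM, while the KO mice lay among mice of other groups. In WT, values were 16.0, 10.4, 10.7 and 7.72 CPM in metestrus, 16.3, 12.3, 11.7, 10.1 and 8.70 CPM in proestrus and 7.93, 9.60, 7.10, 10.5 and 14.0 CPM in males, with 7.58 to 13.3 CPM (median 10.5) in estrus. In KO, values were 13.4, 16.5, 11.4, 11.4 and 10.5 CPM in metestrus and 15.9, 8.86, 10.6 and 8.83 CPM in proestrus, with 9.01 to 16.5 CPM (median 12.0) in estrus and 5.95 to 10.5 CPM (median 9.86) in males.

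Enpp6 separated the young diestrus mice from all others in both genotypes. They had 2.99, 3.42 and 3.16 CPM in WT and 3.84, 2.88, 4.56 and 4.92 CPM in KO, and the lowest of the other 48 mice had 5.05 CPM. The older diestrus mice had 11.9, 7.49 and 7.34 CPM in WT and 5.63 and 7.14 CPM in KO, and the 10 young mice outside diestrus had 6.44 to 11.9 CPM. Those 10 mice were 12.0 to 13.57 weeks old, and 4 of the 7 young diestrus mice were younger than any of them. In WT, values were 8.60, 7.64, 5.95 and 6.27 CPM in metestrus, 14.0, 11.8, 10.5, 6.44 and 7.26 CPM in proestrus and 10.6, 10.4, 8.64, 7.90 and 7.88 CPM in males, with 5.05 to 12.4 CPM (median 6.88) in estrus. In KO, values were 6.80, 11.9, 7.45, 7.52 and 8.72 CPM in metestrus and 10.4, 9.99, 10.6 and 7.23 CPM in proestrus, with 8.01 to 12.2 CPM (median 9.20) in estrus and 7.25 to 13.5 CPM (median 10.4) in males.

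Bcas1, the third committed gene, did not follow Gpr17 and Enpp6. The young diestrus mice had 25.4, 30.5 and 33.9 CPM in WT and 32.7, 28.8, 28.9 and 31.9 CPM in KO, within the 18.5 to 41.8 CPM of the other 48. The older diestrus mice had 30.6, 24.9 and 28.1 CPM in WT and 18.5 and 31.9 CPM in KO. Only 1 of the 7 was below the median of the other 48 mice, and no comparison among the 10 groups called Bcas1.

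Among the remaining members, Tnr and Vcan were low in the 7 mice and Lhfpl3 was not. Tnr was 18.2, 17.4 and 17.9 CPM in the young WT and 20.7, 21.8, 26.6 and 23.9 CPM in the young KO diestrus mice, against 24.4 to 60.6 CPM in the other 48, of which 3 were below the highest of the 7. Vcan was 1.98, 3.10 and 2.44 CPM in the young WT and 2.46, 4.12, 3.15 and 3.61 CPM in the young KO mice, against 3.37 to 8.96 CPM, with 8 of 48 below the highest. Ptprz1, at 49.6 to 60.4 CPM in the 7 and 44.7 to 87.6 CPM in the others, and Lhfpl3, at 10.8 to 15.4 CPM and 8.80 to 16.1 CPM, overlapped widely. All 7 were below the median of the others for Ptprz1 and 1 of 7 for Lhfpl3.

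**Figure D2:**
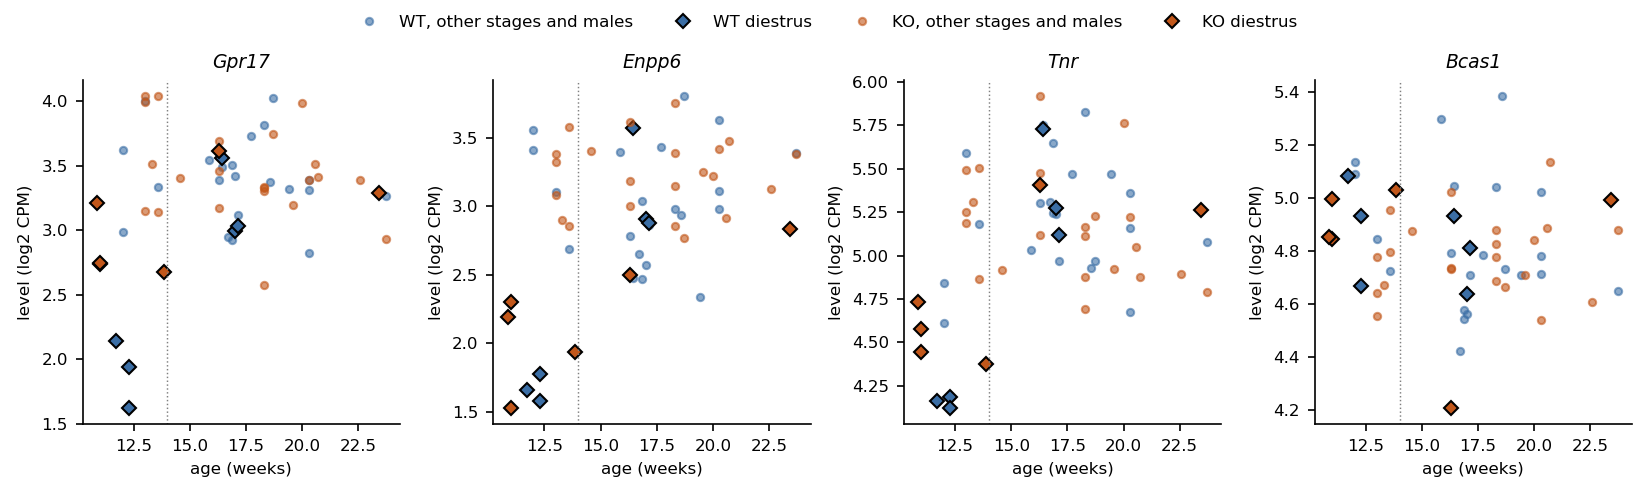
Level of Gpr17, Enpp6, Tnr and Bcas1 (log2 CPM) against age in weeks for all 55 mice, with diestrus mice as diamonds and a dotted line at 14 weeks. The 7 young diestrus mice lie low for Enpp6, at 2.88 to 4.92 CPM, while the other mice under 14 weeks have 6.44 to 11.9 CPM.

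The first comparison asked how the members differ between estrous stages in WT females. Across the 6 stage pairs, 12 of 54 member comparisons passed a false discovery rate (FDR) of 0.05 in limma, and in each of them the diestrus group was the lower. Gpr17 was called in all 3 pairs with diestrus, Enpp6, Vcan and Tnr in 2, and Pdgfra, Cspg4 and Ptprz1 in 1. Bcas1 and Lhfpl3 were called in none.

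Against estrus, WT diestrus was lower for 7 of the 9 members, where 13.1% of all genes tested were called lower. The log2 difference was -1.10 (SE 0.22, FDR 0.000779) for Gpr17, -0.94 (SE 0.22, FDR 0.00243) for Vcan and -0.87 (SE 0.18, FDR 0.000966) for Tnr. It was -0.83 (SE 0.24, FDR 0.0107) for Enpp6, -0.68 (SE 0.20, FDR 0.0131) for Cspg4, -0.46 (SE 0.16, FDR 0.0366) for Pdgfra and -0.37 (SE 0.10, FDR 0.00593) for Ptprz1. The precursor genes Pdgfra and Cspg4 and the committed genes Gpr17 and Enpp6 were thus lower together, while the committed gene Bcas1 was not called. The median over the 9 members was -0.68.

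Against proestrus, WT diestrus was lower for 2 members, with 7.00% of all genes called lower. These were Gpr17 (log2 difference -1.28, SE 0.24, FDR 0.00128) and Enpp6 (-1.20, SE 0.26, FDR 0.00461), both committed genes. WT metestrus was higher than diestrus for 3 members, with 5.59% of all genes called higher: Gpr17 (1.06, SE 0.24, FDR 0.00866), Vcan (0.97, SE 0.23, FDR 0.0114) and Tnr (0.65, SE 0.20, FDR 0.0331). No member was called between metestrus and proestrus (1 with an unadjusted p under 0.05, 0.767% of all genes called), between metestrus and estrus (0 members, 0% of genes called, 705 genes with an unadjusted p under 0.05) or between proestrus and estrus (2 members, 6.82% of genes called). edgeR and DESeq2 called no member in these 3 pairs either. Tnr was called lower in proestrus than in estrus in 3 refits: without the young diestrus mice (-0.44, FDR 0.0489, 6.93% of all genes called), with mice of 14 weeks or more alone (-0.44, FDR 0.0470, 12.6%) and with only the groups compared (-0.43, FDR 0.0236, 6.46%).

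With the 2 age sets of diestrus mice apart, the calls followed the young set. Because these sets were formed after the data had been seen, FDRs from fits with the sets apart describe them and test no prior question. This holds here and below. The 3 young WT mice differed from WT metestrus for 7 members (38.5% of all genes called in either direction), from proestrus for 7 (38.8%) and from estrus for 8 (46.6%). Against estrus the difference was -1.54 for Gpr17 (FDR 2.26e-07), -1.31 for Enpp6 (FDR 1.96e-05) and -1.29 for Tnr (FDR 9.66e-09), whereas Lhfpl3 was higher (0.27, FDR 0.0301). The 3 older WT mice differed for 0 members from metestrus, proestrus and estrus, and 0% of all genes were called in any of these, with 352, 1047 and 1031 genes at an unadjusted p under 0.05. Against estrus their difference was -0.33 (SE 0.20) for Gpr17, 0.02 (SE 0.22) for Enpp6, -0.14 (SE 0.16) for Tnr and -0.35 (SE 0.11, FDR 0.759) for Ptprz1. Young and older WT diestrus mice differed from each other for 6 members, with 30.9% of all genes called: Gpr17, Enpp6, Tnr, Vcan and Cspg4 were lower in the young mice and Lhfpl3 was higher.

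These calls also rested on the weights that limma gives to single libraries, which ran from 0.19 to 2.35. For WT diestrus against estrus, limma without weights called 3 members (3.10% of all genes), DESeq2 called 1 (0.687%) and edgeR called 0 (0.0124%). Leaving out WT diestrus replicate 3, 4 or 5 left no WT diestrus call against estrus. The pairs with metestrus and proestrus then held 0 as well. Leaving out replicate 1, 2 or 6, the older mice, raised the calls from 3 to between 6 and 7 in the pair with metestrus and from 2 to between 5 and 6 in the pair with proestrus. For fits without 1 mouse, here and below, the share of all genes called is not given. Their counts are therefore not read as particular to the members.

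The same comparison in KO females gave 16 calls of 54, 15 of them with diestrus as the lower group. KO diestrus was lower than proestrus for 7 members, with 19.4% of all genes called lower. The log2 difference was -1.24 (SE 0.22, FDR 3.37e-05) for Enpp6, -0.80 (SE 0.19, FDR 0.000869) for Cspg4, -0.74 (SE 0.20, FDR 0.00358) for Vcan and -0.56 (SE 0.20, FDR 0.0210) for Gpr17. It was -0.51 (SE 0.18, FDR 0.0222) for Tnr, -0.48 (SE 0.15, FDR 0.0131) for Pdgfra and -0.28 (SE 0.10, FDR 0.0205) for Ptprz1. Without KO proestrus replicate 1 this pair held 1 call, and without KO diestrus replicate 2, 3 or 5, all young mice, 3, 4 and 4.

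KO diestrus was lower than estrus for 5 members, with 19.3% of all genes called lower: Enpp6 (-1.17, SE 0.21, FDR 7.44e-05), Tnr (-0.85, SE 0.17, FDR 0.000155), Gpr17 (-0.69, SE 0.18, FDR 0.00429), Vcan (-0.66, SE 0.19, FDR 0.00919) and Cspg4 (-0.58, SE 0.18, FDR 0.0140). KO metestrus was higher than diestrus for 3, with 8.20% of all genes called higher: Enpp6 (0.90, SE 0.22, FDR 0.00553), Gpr17 (0.69, SE 0.18, FDR 0.0101) and Tnr (0.54, SE 0.17, FDR 0.0307). The 5 calls against estrus became 3 without KO estrus replicate 2, and the 3 against metestrus became 1 without KO diestrus replicate 2 or 5. The 1 call without diestrus was Ptprz1, lower in metestrus than in proestrus (-0.34, SE 0.10, FDR 0.0423, 1.50% of all genes called lower), which was lost without any 1 of 8 mice. No member was called between metestrus and estrus (1 with an unadjusted p under 0.05, 0% of genes called, 1367 genes with an unadjusted p under 0.05) or between proestrus and estrus (0 members, 0.507% of genes called), nor by edgeR or DESeq2.

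Apart, the 4 young KO diestrus mice differed from metestrus for 5 members (17.7% of all genes called), from proestrus for 7 (38.6%) and from estrus for 5 (38.2%). The 2 older KO mice differed for 0 members from each of these stages, where 0% of all genes were called and 499, 1063 and 120 genes had an unadjusted p under 0.05. Enpp6 was -0.58 (SE 0.30) against estrus and -0.65 (SE 0.30) against proestrus in those 2 mice, and Tnr was -0.15 (SE 0.21) and 0.20 (SE 0.22). Young and older KO diestrus mice differed for 2 members, Tnr (-0.83, FDR 0.0079) and Cspg4 (-0.79, FDR 0.037), with 8.67% of all genes called. Over both genotypes they differed for 5, with 35.5% called: Tnr (-0.99, FDR 4.61e-07), Enpp6 (-1.0, FDR 0.000227), Gpr17 (-0.93, FDR 9.13e-05), Vcan (-0.83, FDR 0.000868) and Cspg4 (-0.80, FDR 0.00034). The age sets of the KO mice, formed after the data had been seen, hold 4 and 2 mice, and the older set gives the larger errors.

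Enpp6 in KO diestrus was called against metestrus, proestrus and estrus in each of the 55 fits that left out 1 mouse. Each of these fits kept most of the young KO diestrus mice, so they do not test whether the calls depend on that set. In the older KO diestrus mice, Enpp6 was -0.31 (SE 0.30) against metestrus, -0.65 (SE 0.30) against proestrus and -0.58 (SE 0.30) against estrus. None of these differences was called. For KO diestrus against proestrus, limma without weights (10.1% of all genes), DESeq2 (11.1%) and edgeR (8.37%) each called 1 member, Enpp6. For KO diestrus against estrus, limma without weights (1.57%) and DESeq2 (0.915%) called 1 and edgeR (0.0866%) called 0, with Enpp6 at -1.01 and an FDR of 0.0684 in edgeR. Against metestrus Enpp6 was not called by edgeR (0.81, FDR 0.410), DESeq2 (FDR 0.248) or limma without weights (FDR 0.296), nor with age in the model (0.63, FDR 0.161). Gpr17 and Tnr against estrus were also called in all 55 fits, which again kept most of the young mice.

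**Figure D3:**
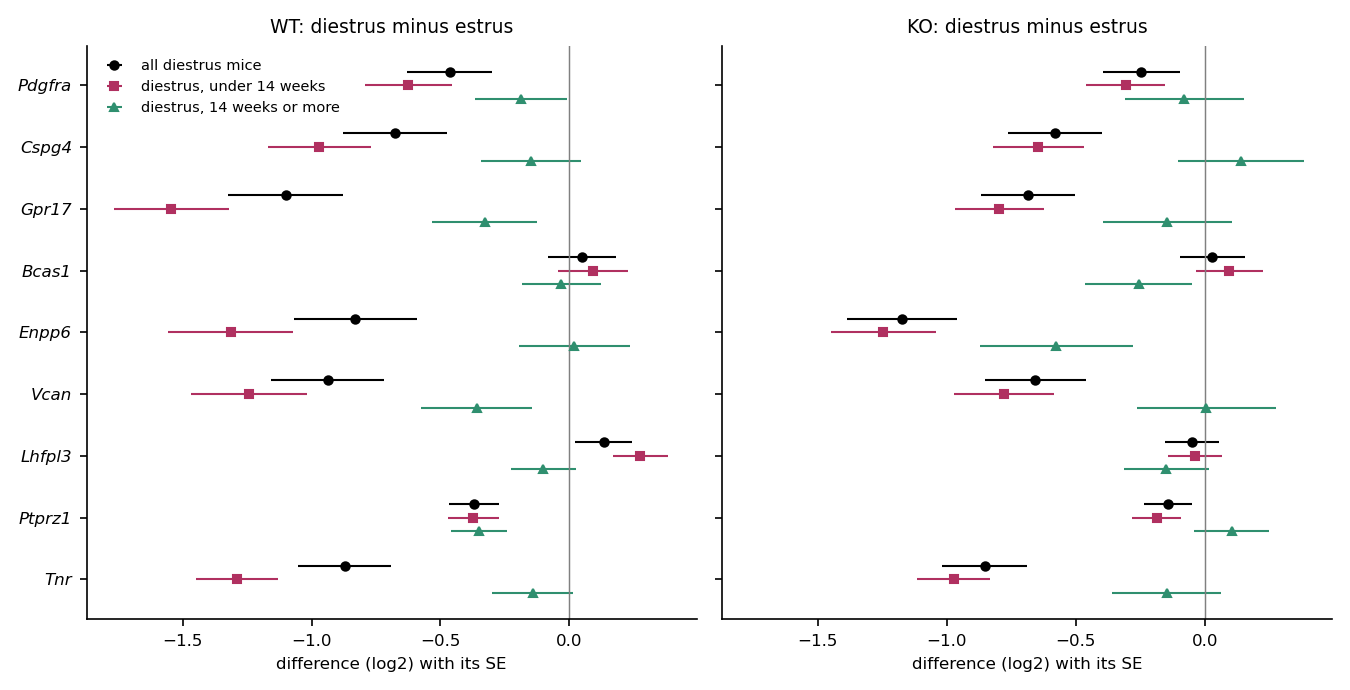
Diestrus minus estrus (log2 difference with its SE from limma) for each member in WT and KO mice, for all diestrus mice, those under 14 weeks and those of 14 weeks or more. In WT, the young mice reach -1.54 for Gpr17 and -1.31 for Enpp6, and the older ones lie at -0.33 and 0.02.

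Set against males of the same genotype, WT stages gave no call for any member. The share of all genes called was 0.0680% in diestrus and 0.0495% in estrus, against 0.0309% each for proestrus and metestrus, and edgeR and DESeq2 called 0 members. In diestrus 5 members had an unadjusted p under 0.05, with Enpp6 at -0.96 (FDR 0.101) and Gpr17 at -0.89 (FDR 0.105), and among the other stages 1 member did in metestrus and 1 in estrus. Without 1 of the older diestrus mice 4 members were called, and without WT male replicate 1, 2 or 3 there were 6. No share of all genes is given for these fits, but without all older diestrus mice it rose from 0.0680% to 26.2%. The 3 young WT diestrus mice differed from WT males for 6 members (25.4% of all genes called), with Enpp6 at -1.44 (FDR 0.000132) and Gpr17 at -1.33 (FDR 0.000162), and the 3 older ones for 0 (0.0309%). Refitted without the older diestrus mice of both genotypes, WT diestrus against WT males called 6 members (26.2% of all genes), and without WT mice of B6 x B6 matings it called 7 (42.7%). The latter refit keeps the 3 young WT diestrus mice and 1 of the 3 older ones.

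In KO mice Enpp6 was lower in diestrus than in males, at -1.31 (SE 0.20, FDR 2.12e-06), with 18.0% of all genes called lower. It was the sole member called, by limma, by DESeq2 (7.23% of all genes), by edgeR (5.03%) and by limma without weights (6.54%). The 4 young KO mice differed from males for 5 members (34.5% of all genes called), Enpp6 among them at -1.39 (FDR 8.98e-08), and the 2 older ones for 0 (0.0433%), with Enpp6 at -0.72 (SE 0.29, FDR 0.418). Tnr was higher in KO estrus than in males, at 0.50 (SE 0.16, FDR 0.0383, 4.32% of all genes called higher), a call kept in 29 of the 55 fits without 1 mouse. The count of members lower in KO diestrus than in males was 1 to 5 over those fits, the highest without KO diestrus replicate 6, an older mouse. No member was called in KO metestrus (0.359% of genes) or proestrus (0.315%) against males, where 2 members each had an unadjusted p under 0.05 and edgeR and DESeq2 called 0.

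Averaged over the 4 stages, KO females had less Enpp6 than KO males (-0.48, SE 0.14, FDR 0.0264, 3.83% of all genes called lower), a call lost without the young diestrus mice (-0.34, FDR 0.132), with age in the model and in edgeR and DESeq2. WT females and WT males differed for 0 members (0 with an unadjusted p under 0.05, 0.0309% of all genes called), also in edgeR and DESeq2.

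The comparison of genotypes asked whether loss of Cnih3 goes with other levels of the members. No KO mouse came from B6 x B6 matings, whereas 16 of the 27 WT mice did, most of them in estrus, proestrus and metestrus. Genotype and mating cannot be fully told apart in these stages. Averaged over the 4 stages and males, 0 of 9 members were called in limma, edgeR or DESeq2 and 0 had an unadjusted p under 0.05, while 3.40% of all genes were called. The largest difference was that of Gpr17, at 0.16 with a 95% interval of -0.02 to 0.33. Pdgfra differed by 0.11 (-0.04 to 0.25) and Enpp6 by 0.10 (-0.09 to 0.30), and the median over the 9 members was 0.07. Within a stage or in males 0 members were called. The share of all genes called was 0% for diestrus (1321 genes at an unadjusted p under 0.05), 0.0247% for metestrus, 0.315% for proestrus, 0.179% for estrus and 0.00619% for males. At an unadjusted p under 0.05 there was 1 member for diestrus, 1 for metestrus and 2 for proestrus.

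The member in diestrus was Gpr17, higher in KO than in WT by 0.58 with an interval of 0.12 to 1.04 and an FDR of 0.542. When the older diestrus mice were left out, the difference was 0.91 (FDR 0.0426, 1.66% of all genes called), which compares 6.38 to 9.24 CPM in 4 KO mice with 3.07 to 4.42 CPM in 3 WT mice that do not overlap. The change from proestrus to diestrus then differed between the genotypes by 1.06 (FDR 0.0498, 2.03% of all genes called). With all diestrus mice, none of 10 tests of the genotype difference in a change between stages, or between a stage and males, called a member, nor did edgeR or DESeq2, and each of them called 0% of all genes. At an unadjusted p under 0.05 those tests held 0 to 2 members and 394 to 2648 genes.

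Age itself, as a slope per week added to the 10 group means, called 0 members in limma, edgeR or DESeq2, with 0.0804% of all genes called. Enpp6 had the steepest slope, 0.043 on the log2 scale per week (FDR 0.569), and was the sole member with an unadjusted p under 0.05.

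The contrast of committed with precursor genes was taken per mouse as the mean log2 CPM of Gpr17, Bcas1 and Enpp6 minus that of Pdgfra and Cspg4. WT diestrus mice had 0.57 ± 0.23 (SD, n = 6), estrus mice 0.52 ± 0.24 (n = 7), proestrus mice 0.82 ± 0.46 (n = 5), metestrus mice 0.66 ± 0.40 (n = 4) and males 0.68 ± 0.29 (n = 5). KO diestrus mice had 0.53 ± 0.19 (n = 6), estrus mice 0.83 ± 0.37 (n = 6), proestrus mice 0.57 ± 0.25 (n = 4), metestrus mice 0.77 ± 0.13 (n = 5) and males 0.70 ± 0.13 (n = 7). The groups overlap throughout.

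Both sides of the contrast were lower in the young diestrus mice. The precursor mean was 2.52 ± 0.25 in the 7 mice and 3.09 ± 0.24 in the other 48, and the committed mean was 3.07 ± 0.28 and 3.77 ± 0.22. The contrast with all 3 committed genes was 0.54 ± 0.24 in the 7 mice (from 0.25 to 0.87). In the other 48 it was 0.68 ± 0.28 (from 0.12 to 1.31), a range that holds all 7. With Bcas1 left out, the contrast was -0.38 ± 0.30 in the 7 mice (from -0.77 to 0.04), 0.17 ± 0.31 in the other 48 (from -0.45 to 0.95), 0.02 ± 0.17 in the 5 older diestrus mice and 0.32 ± 0.33 in the 10 young mice outside diestrus. Gpr17 and Enpp6, but not the 3 committed genes as a set, were thus lower on average relative to Pdgfra and Cspg4 in the 7 than in the other 48. By genotype, the contrast without Bcas1 was -0.56 ± 0.29 in young and 0.11 ± 0.16 in older WT diestrus mice. In KO diestrus mice it was -0.25 ± 0.25 in the young (from -0.51 to 0.04), whose range holds the older ones (from -0.13 to -0.08). The difference between the 7 and the other 48 is described here without a test because the genes were grouped with their values known. No p is given for any sum over the members.

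**Figure D4:**
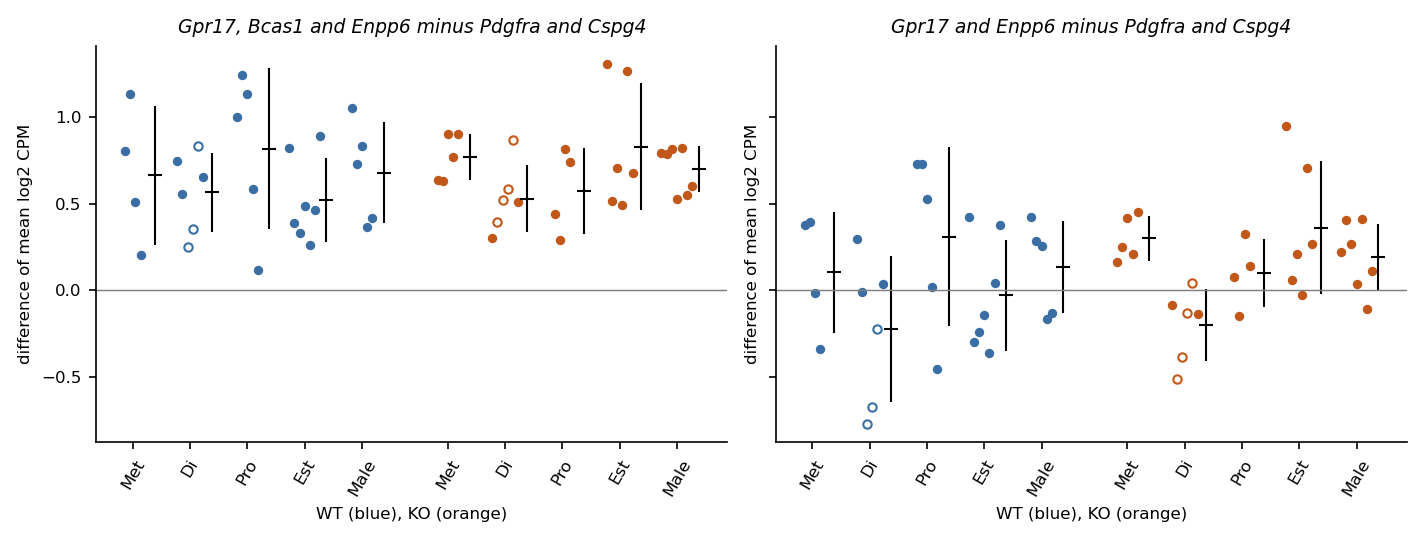
Mean log2 CPM of the committed genes minus that of Pdgfra and Cspg4 in every mouse, with Bcas1 (left) and without it (right). Bars are the group mean and SD and open circles the 7 diestrus mice under 14 weeks, which reach down to -0.77 without Bcas1.

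The wider precursor and oligodendrocyte gene lists moved unevenly in the same comparisons. For WT diestrus against estrus, where 13.1% of all genes were called lower and 9.05% higher, of 14 tested further precursor genes 1 was higher (Tmem100, 0.44) and 1 lower (Xylt1, -0.41), with a list median of -0.19. Of 14 genes of newly formed oligodendrocytes 5 were lower, among them Sema5a (-0.87) and Cemip2 (-0.87), and of 12 transcription factors of the lineage 4 were lower, among them Myrf (-0.82), which drives myelin genes, Olig2 (-0.56) and Sox10 (-0.48). Of 16 mature oligodendrocyte genes 10 were lower, with a median of -0.55, and of 15 ligands and partners of the members 5 were lower, among them Nfasc (-0.96), an adhesion protein of axons and oligodendrocytes, and the protease gene Adamts4 (-0.99). Of 10 astrocyte genes 3 were higher, and of 8 nuclear RNAs 6 were lower, with a median of -1.45.

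For KO diestrus against proestrus, where 19.4% of all genes were called lower and 14.9% higher, 2 further precursor genes were higher and 6 lower, including Pcdh15 (-0.96), Matn4 (-0.73) and Cspg5 (-0.61). Of the newly formed oligodendrocyte genes 1 was higher and 5 lower, of the lineage factors 6 were lower, with Nkx6-2 at -1.70, Sox10 at -0.92 and Olig1 at -0.84, and of the ligands and partners 5 were lower, with Cntn3 at -1.03. Of the mature oligodendrocyte genes 13 of 16 were lower, with Mag at -1.63, Cldn11 at -1.25 and Mog at -1.04. Astrocyte genes were higher in 3 and lower in 1, and nuclear RNAs higher in 1 and lower in 6 of 8. The lists hold the same young diestrus mice as the members' calls, and the members' differences between groups were not refitted with nuclear RNA, astrocyte or mature oligodendrocyte content in the model.

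Over all KO against all WT mice, 1 lineage factor was lower and no gene of the other lists was called. Of the lists of other cells, for WT diestrus against estrus, 0 of 7 pericyte, 0 of 6 fibroblast and 0 of 9 choroid plexus genes were called, 2 of 8 interneuron and 2 of 8 microglia genes were lower, 3 of 8 neuron genes were higher and 4 lower, and 2 of 7 cell division genes were higher. In the 7 young mice and the other 48, the summed level was 44.6 to 59.1 and 31.1 to 76.8 CPM for pericyte, 11.6 to 23.8 and 10.9 to 94.0 CPM for fibroblast, and 757 to 948 and 672 to 941 CPM for interneuron markers. No listed gene was at 0 in all mice.

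Across mice, Pdgfra, Vcan, Ptprz1 and Tnr varied together, and the committed gene Gpr17 varied with them. Bcas1 and Enpp6 varied with the genes of mature oligodendrocytes. Correlations were taken over the 48 mice outside the young diestrus set, on log2 CPM with group means removed, because the 7 mice form a cluster of their own and their 3 WT and 4 KO mice are too few for a value within it. Of 36 member pairs 16 passed an adjusted p of 0.05 by permutation, all of them positive. The permutation moved values freely over all 48 mice without allowing for the group means removed, so its p-values are too small. The closest were Pdgfra with Tnr (r = 0.69, rho = 0.65, adjusted p = 7.2e-05, r = 0.68 without the 2 most distant mice), Pdgfra with Vcan (r = 0.67), Pdgfra with Ptprz1 (r = 0.65) and Gpr17 with Tnr (r = 0.64). Gpr17 had r = 0.60 with Pdgfra, 0.49 with Ptprz1 and 0.45 with Vcan, and Cspg4 had r = 0.55 with Ptprz1 and 0.49 with Tnr.

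The precursor pair itself was loosely tied, with r = 0.38 between Pdgfra and Cspg4 (rho = 0.41, adjusted p = 0.021). Enpp6 correlated with Gpr17 (r = 0.43, rho = 0.39, adjusted p = 0.00759, r = 0.39 without 2 mice) and with Bcas1 (r = 0.37, rho = 0.40, adjusted p = 0.0247, r = 0.38 without 2 mice) but hardly with Cspg4 (r = -0.01), and Gpr17 with Bcas1 had r = 0.15 (adjusted p = 0.463). Among 54 relations of members with marker lists, the closest were Enpp6 with mature oligodendrocyte genes (r = 0.76, rho = 0.76, adjusted p = 0.00027, r = 0.75 without 2 mice) and Bcas1 with the same list (r = 0.73, rho = 0.74, adjusted p = 0.00027, r = 0.71 without 2 mice). Gpr17 had r = 0.31 with that list (rho = 0.33, adjusted p = 0.0858) and r = 0.51 with astrocyte genes (rho = 0.51, adjusted p = 0.00259). Pdgfra, Vcan, Ptprz1 and Tnr also had a positive r with 3 other lists. Because the p-values are too small, an adjusted p just under 0.05 is not read as firm. With astrocyte genes r was 0.35, 0.54, 0.40 and 0.35 (adjusted p = 0.045, 0.00162, 0.0202 and 0.0466), with interneuron genes 0.36, 0.47, 0.53 and 0.37 (adjusted p = 0.0405, 0.0054, 0.00162 and 0.0405) and with nuclear RNAs 0.35, 0.36, 0.41 and 0.42 (adjusted p = 0.045, 0.0405, 0.0202 and 0.0158). By rank, rho was 0.31, 0.60, 0.46 and 0.27, then 0.30, 0.42, 0.39 and 0.27, then 0.37, 0.41, 0.34 and 0.46, and 5 of these 12 relations missed an adjusted p of 0.05: Pdgfra and Tnr with astrocyte and with interneuron genes, and Ptprz1 with nuclear RNAs. Without the 2 most distant mice, r was 0.23 to 0.52 in these 12. Such ties were not particular to the 4 genes. Cspg4 had r = 0.47 with nuclear RNAs (rho = 0.44, adjusted p = 0.0054) and 0.43 with interneuron genes (rho = 0.35, adjusted p = 0.0145, by rank 0.0574). Lhfpl3 had r = 0.47 with astrocyte genes (rho = 0.47, adjusted p = 0.0054). Over all 55 mice 21 member pairs passed, 20 of them positive.

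**Figure D5:**
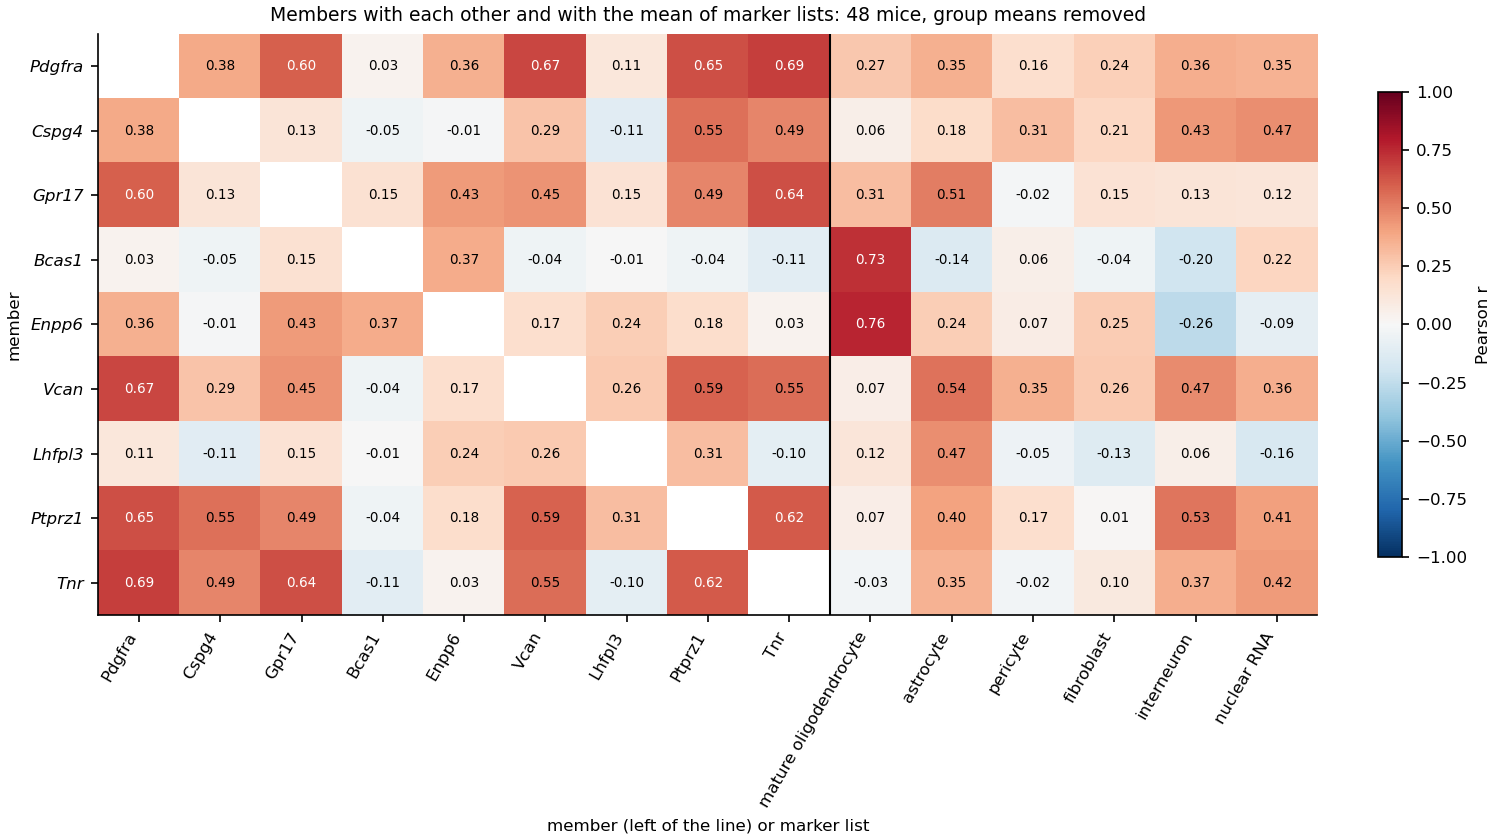
Pearson r between members, and between each member and the mean of 6 marker lists, over the 48 mice outside the young diestrus set with group means removed (log2 CPM). Bcas1 and Enpp6 reach 0.73 and 0.76 with mature oligodendrocyte genes, and Pdgfra, Vcan, Ptprz1 and Tnr lie between 0.55 and 0.69 with each other.

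Of all other genes, those most like the mean of Pdgfra and Cspg4 over the 55 mice were Sort1 (r = 0.87), Cds2 (0.86), Spock2 (0.86), Tmem132b (0.85) and Lrp1 (0.85). Among those most like the mean of the 3 committed genes were Lpar1 (0.90), Tspan2 (0.87), Tmem63a (0.86) and Ugt8a (0.85), an enzyme of myelin lipid synthesis. Over the 48 mice Sort1 (0.85) stayed first on the one side and Lpar1 (0.84) on the other, while Cds2, Spock2, Tmem132b and Lrp1 gave way to Neo1, Clstn1, Sv2a and Plxna2. These values are descriptions and carry no p.

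The transcript table showed which annotated transcripts the members' reads were assigned to, given as a share of the gene's transcript counts over 55 mice. For Cspg4, 86.7% ± 7.4 (SD) went to Cspg4-204, a retained-intron transcript of 3267 bases at the 3′ end of the gene (chr9:56896323-56899869), and 10.0% ± 8.2 to the coding transcript Cspg4-201 of 8121 bases. In counts estimated by Salmon this was a median of 105 against 12.9. Vcan went to Vcan-203 at 79.3% ± 14.6, Lhfpl3 to Lhfpl3-202 at 62.8% ± 7.6 and Tnr to Tnr-202 at 99.1% ± 0.68, while Gpr17 has 1 transcript in the table. The transcripts of Pdgfra, Bcas1 and Enpp6 were not analysed here.

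Ptprz1 divided between Ptprz1-201 at 43.7% ± 5.1, Ptprz1-206 at 42.1% ± 4.7 and Ptprz1-204 at 13.3% ± 4.2. Ptprz1-206 ends at position 23004678, short of the 23052916 of Ptprz1-201. In the 7 young diestrus mice its share was 49.3% ± 2.9, from 47.1% to 55.6%, against 41.0% ± 3.95, from 27.7% to 48.4%, in the other 48. The gene-level count of Ptprz1 in the same mice overlapped widely with that of the others, whereas the transcript shares barely did. These shares were not tested.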

How the data were processed

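RNA-seq of the dorsal hippocampus of 55 mice was analysed from the deposited gene counts. Per the study's methods, poly-A RNA was amplified with a low-input cDNA kit, and per the submitters' processing notes the authors aligned reads with STAR 2.7.9a to GRCm38, counted them per gene with featureCounts 2.0.3 and estimated transcripts with Salmon 1.5.2. The tables deposited by the authors hold read counts per gene, estimated counts per transcript, and log2 CPM, the last used only to check the normalization: recomputed values differed from the authors' by at most 5e-14 over 16164 genes. Of counts from 1 to 10, 60.1% were even. Whether both mates of a read pair were counted is not given in the sources used here; if so, a fragment gives up to 2 counts. 1 column that matches no labelled sample was left out, as were the authors' own comparisons (fold changes and adjusted p-values).

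The filter asked for more than 1 CPM in 10 or more libraries and dropped 5 ribosomal genes, leaving 16168 genes. As in the study's methods, counts were TMM-normalized (edgeR 4.0.16) and fitted with voom and sample quality weights in limma 3.58.1 (R 4.3.3; prior count 0.5) on 10 group means, two-sided, with Benjamini-Hochberg FDR over all genes of a comparison and a threshold of 0.05. CPM are TMM-scaled. Mice were grouped by the stage, sex and genotype labels; p-values measure the spread between mice. edgeR's quasi-likelihood test and DESeq2 1.42.0 were alternatives. Correlations used two-sided permutation tests with 100000 resamples (smallest p 1e-05) in scipy 1.17.1, Benjamini-Hochberg adjusted within 36 pairs or 54 relations. The permutation did not allow for the 10 group means removed, so these p-values are too small. The fits were tested on simulated data.

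The members and gene lists were chosen with earlier results of these data known. Named were the 9 members, at most 3 genes per other list by FDR, the 5 genes most like each side of the contrast, and Cnih3. 1 gene that this rule names is not reported here. The lowest count of a member in a library was 96. Sequences are from RefSeq.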

Additional observations from a re-analysis of the deposited data

Results flagged for a closer look

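Of 90 checks of a member within a group, 4 held a mouse whose level lay farther from its group than Dixon's 95% limit allows, where chance gives about 1 in 20. Pdgfra was lowest in KO male replicate 6, at 2.80 log2 CPM against 3.50 to 3.70 in the other males. Bcas1 was lowest in KO diestrus replicate 1, one of the older diestrus mice, at 4.21 against 4.85 to 5.03. Enpp6 was lowest in KO proestrus replicate 4, at 2.85 against 3.32 to 3.40. Ptprz1 was highest in WT proestrus replicate 5, at 6.29 against 5.75 to 5.89.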

How the results depend on the processing

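Without the young diestrus mice the calls of members fell from 12 to 1 in WT stage pairs, 16 to 1 in KO stage pairs, 2 to 1 in KO stages against males and 1 to 0 for all females against males, and with mice of 14 weeks or more alone they were 1, 0, 1 and 0. The 1 WT call was a new one in both, Tnr in proestrus minus estrus, and the 12 were all lost. Without the older diestrus mice, fewer in number, calls were 22 in WT stage pairs, 6 in WT stages against males (from 0), 6 in KO stages against males, 1 for KO against WT and 1 for genotype by stage interactions (both from 0), and without B6 x B6 mice 7 in WT stages against males. WT stage pairs gave 0 calls in edgeR, 1 in DESeq2 and 3 without sample weights, KO stage pairs 1, 2 and 2, KO stages against males 1, 1 and 1, and all females against males 0, 0 and 0. Without the filter on low counts, KO stage pairs gave 8, KO stages against males 1 and all females against males 0, and with age added the last pair gave 1 and 0. The share of all genes called also moved with the settings. For WT diestrus against estrus it was 22.1% in limma, 0.0124% in edgeR, 0.687% in DESeq2 and 3.10% without sample weights. For WT diestrus against males it was 0.0680%, and 26.2% without the older diestrus mice. With the age sets apart, 0% were called between the older diestrus mice and any other stage of their genotype. The counts are therefore not read as particular to the members. The cause of these changes was not tested.

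The sign turned for 9 of the member calls. Without the young diestrus mice and with mice of 14 weeks or more alone, respectively, it was -0.072 and -0.17 for Tnr in WT metestrus minus diestrus, 0.019 and 0.016 for Enpp6 in WT diestrus minus estrus, -0.15 and -0.25 for Tnr in KO metestrus minus diestrus, 0.18 and 0.39 for Tnr in KO diestrus minus proestrus, 0.14 and 0.067 for Cspg4 and 0.0013 and 0.0014 for Vcan in KO diestrus minus estrus. With mice of 14 weeks or more alone, KO diestrus minus proestrus was 0.31 for Cspg4, 0.025 for Gpr17 and 0.049 for Vcan. That setting leaves 1 KO proestrus mouse against 2 KO diestrus mice, and the lone mouse is assumed to vary like the other groups. Of the other single-member values, 158 kept their sign and lost the call and 199 kept both. Without Bcas1 the contrast of committed with precursor genes was 0.105, -0.224, 0.311, -0.028 and 0.135 in WT metestrus, diestrus, proestrus, estrus and males and 0.301, -0.199, 0.101, 0.362 and 0.194 in KO.

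Leaving out 1 mouse at a time, calls ranged from 1 to 20 in WT stage pairs, 9 to 17 in KO stage pairs, 0 to 6 in WT and 1 to 5 in KO stages against males, and 0 to 1 for all females against males, and stayed at 0 for KO against WT, interactions and age. The share of all genes called is not given beside these counts. The contrast ranged from 0.51 to 0.82, 0.51 to 0.63, 0.71 to 0.99, 0.46 to 0.57 and 0.59 to 0.76 in WT and from 0.74 to 0.80, 0.46 to 0.58, 0.49 to 0.67, 0.73 to 0.90 and 0.68 to 0.73 in KO. No paired analysis was possible because the replicate numbers only name mice within a group. What mice with like sample names share is not given in the sources used here, and no block on it was tried. All KO against all WT was not refitted with those groups alone, since it uses every group. The 2 diestrus age sets and the correlations without the young mice were added after seeing the data. Libraries held at least 25881295 reads, and the older diestrus set 3 WT and 2 KO mice.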
